A study of Mus musculus with 9 samples.

Results

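The genes described here encode the enzymes that build fatty acids, assemble them into triglyceride and break triglyceride down again in 3T3-L1 adipocytes. Signalling proteins that switch breakdown on or restrain it are included. The 36 genes were chosen by role, 26 for synthesis and 10 for breakdown, and matched to array probe sets that carry a single gene symbol. Of these, 34 of the 18193 genes on the array were measured (25 for synthesis and 9 for breakdown), Gpat3 and Gpat4 under the older symbols Agpat9 and Agpat6 in the list, and Acsl1 and Adrb1 were not analysed here because no single-symbol probe set carried their names. Gnai1 stayed below the signal filter, which left 33 tested members.

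The 9 arrays fall into 3 groups of 3, all from 3T3-L1, a mouse line grown as preadipocytes and used here as mature fat cells. Cells of the hairpin 1 group carried shEbf1 hairpin 1 and cells of the hairpin 2 group carried shEbf1 hairpin 2, each directed at Ebf1, which encodes early B cell factor 1, a DNA-binding regulator of fat and B cell genes, while the control cells carried a scrambled hairpin. All groups shared the lentiviral delivery in 3 to 4 rounds of infection and at least 8 days of selection in 5 µg/ml puromycin, and no uninfected cells were compared. The labels do not say whether the repeats of a group came from separate cultures, so p-values measure the spread between arrays, which may be technical.

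Fat cells make fatty acids from citrate-derived acetyl-CoA, using NADPH as the reductant, activate them to acyl-CoA, and attach them in sequence to glycerol 3-phosphate to give lysophosphatidate, phosphatidate, diglyceride and triglyceride. Breakdown runs through a chain of lipases that remove the acyl groups in turn, and it is driven by cyclic AMP and protein kinase A and restrained by inhibitory G proteins. In adipocytes most of the enzymes of both directions are abundant, and several are known targets of the adipogenic and lipogenic transcription factors.

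Ebf1 itself, whose level checks the labels, had log2 RMA values of 9.32, 9.54 and 9.45 with hairpin 1, 8.90, 8.72 and 9.20 with hairpin 2, and 10.12, 10.15 and 10.31 with the scrambled hairpin. All 6 arrays of the hairpin groups lay below all 3 scrambled arrays. The log2 fold change was -0.75 with hairpin 1 (limma adjusted p = 0.000102) and -1.25 with hairpin 2 (adjusted p = 2.98e-07), and the level was 0.50 log2 units lower with hairpin 2 than with hairpin 1 (adjusted p = 0.00351). The 3 other Ebf1 probe sets above the filter were also called lower with each hairpin.

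The labelled cell type was checked against 3 marker lists. The mean log2 level of the 8 measured adipocyte markers was 12.59 to 12.65 on the hairpin 1 arrays, 12.57 to 12.59 on the hairpin 2 arrays and 12.57 to 12.64 on the scrambled arrays. With hairpin 1, 0 of the 7 tested adipocyte markers were called, and with hairpin 2, 1 was (Cidec, lower). The mean level of the 7 measured preadipocyte or fibroblast markers was 10.45 to 10.62 with hairpin 1, 10.58 to 10.63 with hairpin 2 and 9.76 to 9.88 with the scrambled hairpin. Of the 6 tested, 6 were called higher with hairpin 1, and 5 higher and 1 lower with hairpin 2. In hairpin 2 minus hairpin 1, 5 were called higher and 1 lower, and the 7 measured ran from -1.52 to 1.04. Over all genes tested 33%, 34.8% and 29.1% were called in the same order of comparisons. The mean level of the 7 macrophage or leukocyte markers was 5.99 to 6.15 with hairpin 1, 6.16 to 6.34 with hairpin 2 and 6.01 to 6.03 with the scrambled hairpin. Of the 4 macrophage markers tested, 0 were called with hairpin 1 and 1 was called higher with hairpin 2 (Cd68), and the defining markers Ptprc, Adgre1 and Itgam were below the filter. The part of the fibroblast markers in the results below was not tested. In bulk RNA, fewer cells of a type and less RNA per cell cannot be told apart.

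Across the whole set, changes ran in both directions and were mostly small. A gene counted as changed when the adjusted p of limma, over all 12735 genes tested, was below 0.05. With hairpin 1, 12 of 33 members were called higher and 6 lower, together 54.5%, against 33% of all genes tested (23.7% higher and 9.23% lower). With hairpin 2, 10 were called higher and 8 lower, again 54.5%, against 34.8% of all genes (21.5% higher and 13.3% lower). All 33 tested members lay in the upper part of the signal range, and 40.6% (hairpin 1) and 42.6% (hairpin 2) of the 9097 genes at or above the median signal were called, shares nearer to that of the members. The groups did not overlap for 18 of 34 measured members with hairpin 1, against 43.4% of all genes tested, and for 21 with hairpin 2, against 49.4%. The hairpin 2 count is the less steady. Without hairpin 2 replicate 1 it was 11 of 33 members, beside 3925 of the 12735 genes tested. Without hairpin 2 replicate 3 it was 10 of 33, beside 4067 of 12735. In these 2 settings the member share was near that of all genes.

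The median log2 fold change of the members was 0.03 with hairpin 1 and 0.05 with hairpin 2, beside 0.07 and 0.02 for all genes tested. Among the 25 synthesis genes the median was 0.04 with hairpin 1 and 0.06 with hairpin 2; hairpin 1 had 11 higher and 4 lower, hairpin 2 had 8 higher and 5 lower. Under quantile normalization the hairpin 1 median of the synthesis genes was -0.03. Among the 8 tested breakdown genes hairpin 1 had 1 higher and 2 lower, and hairpin 2 had 2 higher and 3 lower. With hairpin 1 the called share was 60.0% for synthesis and 37.5% for breakdown, against 33% of all genes tested. With hairpin 2 it was 52.0% and 62.5%, against 34.8%. Among genes at or above the median signal it was 40.6% with hairpin 1 and 42.6% with hairpin 2. The median log2 fold change over the 9 measured breakdown genes was -0.07 with hairpin 1 and -0.15 with hairpin 2. The hairpin 1 median is the value of Gnai1, which was below the filter, so the sign rests on an untested gene. The tested genes next to it on either side were Lipe at -0.13 and Aqp7 at 0.17. Leaving out 1 array moved the breakdown median between -0.12 and 0.03 for hairpin 1, positive without hairpin 1 replicate 3, and between -0.17 and -0.07 for hairpin 2, nearest 0 without hairpin 2 replicate 3. Both directions were therefore present on each side. The 2 comparisons share the scrambled arrays, so each is given by its own values, and differences between the hairpins are tested directly as hairpin 2 minus hairpin 1.

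**Figure D1:**
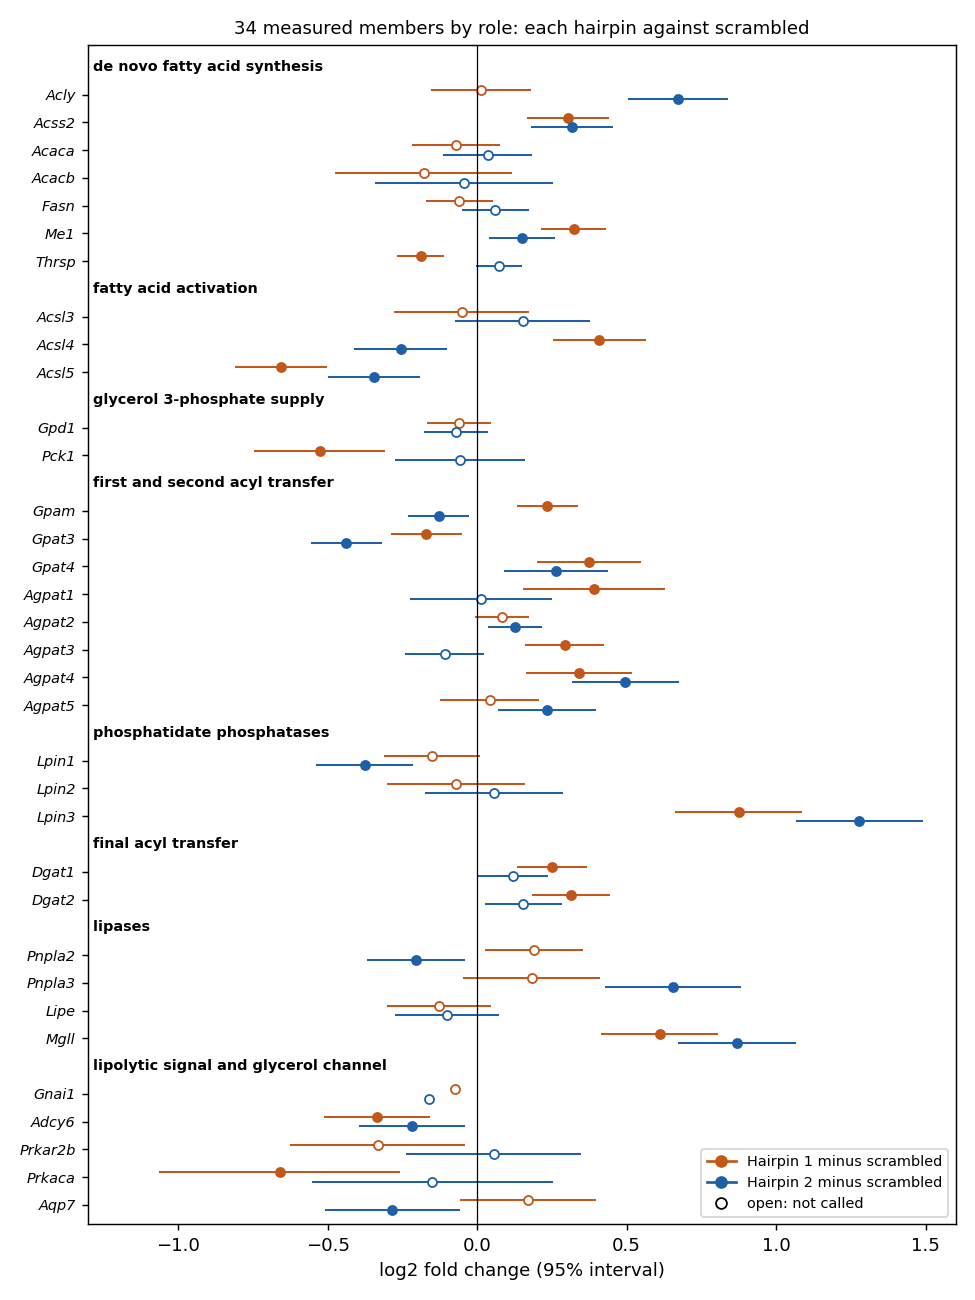
Log2 fold change (horizontal axis) for the 34 measured members, ordered by role, with 95% interval for the 33 tested (Gnai1 has none), for hairpin 1 (orange) and hairpin 2 (blue) against scrambled; filled points were called by limma and open points were not. Most points lie within 0.5 log2 units of 0, and Lpin3 and Mgll lie farthest to the right with both hairpins.

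Called higher with each hairpin were Acss2, Me1, Gpat4, Agpat4, Lpin3 and Mgll, and called lower with each were Acsl5, Gpat3 and Adcy6. Over all genes tested, 13.7% were called higher with both hairpins and 4.87% lower with both. Acsl4 and Gpam were called higher with hairpin 1 and lower with hairpin 2, each on its brightest probe set. Changes of at least 1.5-fold were found for Acsl5, Lpin3, Mgll and Prkaca with hairpin 1, and for Acly, Lpin3, Pnpla3 and Mgll with hairpin 2.

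The promoters of 4 members called the same way with both hairpins are shown because EBF proteins bind a palindrome with the core CCCNNGGG, which reads alike on both strands, flanked by T before and A after it. Each is the window of 250 bases upstream of the RefSeq transcription start (build GRCm38.p6), 5′ to 3′ on the gene's own strand, with matches to CCCNNGGG in capitals. Mgll (chr6:88724162-88724411, plus strand) and Me1 (chr9:86695915-86696164, minus strand) rose with both hairpins and held CCCNNGGG, Lpin3 (chr2:160887918-160888167, plus strand) rose and held none, and Acsl5 (chr19:55253119-55253368, plus strand) fell and held none.
Mgll: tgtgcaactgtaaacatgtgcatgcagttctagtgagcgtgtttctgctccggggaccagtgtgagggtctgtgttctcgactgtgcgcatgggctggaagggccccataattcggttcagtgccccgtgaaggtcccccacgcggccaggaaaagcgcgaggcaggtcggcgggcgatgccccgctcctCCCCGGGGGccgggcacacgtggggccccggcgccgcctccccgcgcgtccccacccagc
Me1: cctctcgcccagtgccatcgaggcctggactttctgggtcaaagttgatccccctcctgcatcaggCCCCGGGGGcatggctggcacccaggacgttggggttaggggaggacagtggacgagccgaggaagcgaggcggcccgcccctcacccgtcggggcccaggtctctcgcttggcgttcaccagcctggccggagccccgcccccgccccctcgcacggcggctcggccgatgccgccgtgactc
Lpin3: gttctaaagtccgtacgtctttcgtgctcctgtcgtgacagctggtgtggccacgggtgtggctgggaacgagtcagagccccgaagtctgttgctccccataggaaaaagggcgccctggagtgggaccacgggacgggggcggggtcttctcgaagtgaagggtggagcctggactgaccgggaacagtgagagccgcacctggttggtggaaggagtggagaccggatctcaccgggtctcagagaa
Acsl5: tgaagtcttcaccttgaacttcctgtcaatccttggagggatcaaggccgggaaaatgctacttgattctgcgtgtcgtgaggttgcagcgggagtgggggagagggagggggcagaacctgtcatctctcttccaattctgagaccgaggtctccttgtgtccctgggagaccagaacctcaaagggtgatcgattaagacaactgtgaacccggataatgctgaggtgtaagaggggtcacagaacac
The capitals in Mgll span 2 overlapping matches that begin at -60 and -59, counted from the transcription start, and those in Me1 span 2 that begin at -184 and -183. The second RefSeq window of Mgll, Me1 and Lpin3 held no match. Acss2, Agpat4 and Gpat3, also called the same way with both hairpins, held no match either and are not shown. Gpat4 and Adcy6 had no window.

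Promoter windows were found in RefSeq for 28 of the 34 measured members. CCCNNGGG was present in 7 of the 28 (25.0%), against 13.43% of 27025 genes with a promoter. These were Acsl3, Agpat1, Aqp7, Lpin2, Me1, Mgll and Prkar2b, of which Me1 and Mgll were called higher with both hairpins, Agpat1 higher with hairpin 1, Aqp7 lower with hairpin 2, and the others with neither. The longer palindrome, CCCNNGGG with the flanking T and A, was in 0 member windows, against 0.91% of all genes. CACGTG, the E-box read by USF and carbohydrate-response factors, was in 6 members (21.4%), against 6.86% of all genes: Gnai1, Lipe, Lpin2, Mgll, Prkaca and Prkar2b. TCACNCCAC, a form of the sterol regulatory element, searched on both strands, was in 0 members, against 1.22% of all genes. A match describes the letters of the window, and no match says only that these letters are not in it.

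De novo fatty acid synthesis begins in the cytosol with acetyl-CoA. Acly, ATP citrate lyase, which makes acetyl-CoA from citrate, had log2 values of 12.38, 12.55 and 12.42 with hairpin 1, 13.02, 13.30 and 13.00 with hairpin 2, and 12.33, 12.44 and 12.53 with the scrambled hairpin. The 3 hairpin 2 arrays lay above all others, and the hairpin 1 and scrambled arrays overlapped. With hairpin 2 Acly rose 1.59-fold (log2 fold change 0.67, SE 0.077, limma adjusted p = 4.18e-06); with hairpin 1 the log2 fold change was 0.01 (95% interval -0.15 to 0.18), and hairpin 2 exceeded hairpin 1 by 0.66 (adjusted p = 1.05e-05). All 3 probe sets of Acly above the filter were called higher with hairpin 2, while with hairpin 1 a set of lower signal was called lower at -0.25.

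Acss2, which makes acetyl-CoA from acetate, had 12.44, 12.60 and 12.44 with hairpin 1, 12.47, 12.55 and 12.51 with hairpin 2, and 12.07, 12.26 and 12.24 with the scrambled hairpin. All 6 hairpin arrays lay above the scrambled arrays, with the 2 hairpins side by side. It rose by 0.30 with hairpin 1 (adjusted p = 0.00157) and by 0.32 with hairpin 2 (adjusted p = 0.000876), and the difference between hairpins was 0.01 (95% interval -0.12 to 0.15).

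Me1, the cytosolic malic enzyme that supplies NADPH, had 13.24, 13.36 and 13.29 with hairpin 1, 13.14, 13.05 and 13.19 with hairpin 2, and 12.94, 12.96 and 13.03 with the scrambled hairpin. The 3 groups did not overlap: hairpin 1 was highest and scrambled lowest. Me1 rose by 0.32 with hairpin 1 (adjusted p = 0.000142) and by 0.15 with hairpin 2 (adjusted p = 0.0281), a difference of -0.17 between hairpin 2 and hairpin 1 (adjusted p = 0.0166). The hairpin 2 call was lost without scrambled replicate 1 or 2 or hairpin 2 replicate 1 or 3, and the difference between hairpins without hairpin 1 replicate 2 or hairpin 2 replicate 2.

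Thrsp, known as Spot 14 and tied to lipogenic gene expression in mouse, had 14.24, 14.10 and 14.18 with hairpin 1, 14.44, 14.44 and 14.43 with hairpin 2, and 14.34, 14.39 and 14.36 with the scrambled hairpin. The hairpin 1 arrays were the lowest and the hairpin 2 arrays the highest, with no overlap. Thrsp fell by 0.19 with hairpin 1 (adjusted p = 0.000660); with hairpin 2 the log2 fold change was 0.07 (adjusted p = 0.127), and hairpin 2 lay 0.26 above hairpin 1 (adjusted p = 3.81e-05). The values lie near the top of the scale, where array differences may be compressed. Of its 2 other probe sets, the brighter was called lower with hairpin 1 at -0.16 and higher with hairpin 2 at 0.16. The dimmer was called lower with hairpin 2 at -0.27.

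The central enzymes of the route were not called. Acaca and Acacb, the acetyl-CoA carboxylases that make malonyl-CoA, had log2 fold changes of -0.07 and -0.18 with hairpin 1 and 0.04 and -0.04 with hairpin 2. Fasn, fatty acid synthase, spanned 13.64 to 13.82 with hairpin 1, 13.81 to 13.97 with hairpin 2 and 13.78 to 13.85 with the scrambled hairpin. Its 95% intervals were -0.17 to 0.05 with hairpin 1 and -0.05 to 0.17 with hairpin 2. The level lies near the top of the scale, where differences may be compressed, which was not tested.

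Long-chain acyl-CoA synthetases activate fatty acids. Acsl5 had 10.91, 11.10 and 11.07 with hairpin 1, 11.33, 11.36 and 11.33 with hairpin 2, and 11.72, 11.60 and 11.73 with the scrambled hairpin. The groups did not overlap, with hairpin 1 lowest and scrambled highest. Acsl5 fell 1.58-fold with hairpin 1 (log2 fold change -0.66, SE 0.071, adjusted p = 3.74e-06) and 1.27-fold with hairpin 2 (-0.34, adjusted p = 0.00114), and hairpin 2 lay 0.31 above hairpin 1 (adjusted p = 0.00344). These calls held under all 18 alternative settings.

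Acsl4, which prefers arachidonic acid, had 11.07, 11.19 and 11.06 with hairpin 1, 10.50, 10.41 and 10.42 with hairpin 2, and 10.70, 10.70 and 10.70 with the scrambled hairpin. The hairpin 1 arrays were all above and the hairpin 2 arrays all below the scrambled arrays. Its log2 fold change was 0.41 with hairpin 1 (adjusted p = 0.000383) and -0.26 with hairpin 2 (adjusted p = 0.00999). These values rest on the probe set with the highest signal: its 2 other probe sets were not called (-0.31 and -0.09 with hairpin 1, -0.05 and 0.05 with hairpin 2), and with the mean of all probe sets the values were 0.0006 with hairpin 1 and -0.08 with hairpin 2, neither called. Hairpin 2 minus hairpin 1 was -0.67 (adjusted p = 4.35e-06) on the brightest probe set but 0.15 and 0.27 on the others, the opposite sign, and -0.08 with the mean of all 3 (adjusted p = 0.521), where the call was lost. Acsl3, the third measured member of this step, was not called, with -0.05 for hairpin 1 and 0.15 for hairpin 2; 1 of its other probe sets was called lower with hairpin 1 at -0.50.

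Glycerol 3-phosphate, the backbone of triglyceride, comes from glycolysis through Gpd1 or from glyceroneogenesis through Pck1, phosphoenolpyruvate carboxykinase. Pck1 had 11.99, 11.53 and 11.78 with hairpin 1, 12.29, 12.10 and 12.32 with hairpin 2, and 12.16, 12.44 and 12.28 with the scrambled hairpin. The 3 hairpin 1 arrays lay below all others, while hairpin 2 and scrambled overlapped. Hairpin 2 lay 0.47 above hairpin 1 (adjusted p = 0.00242), and against scrambled the log2 fold change was -0.53 with hairpin 1 (adjusted p = 0.000879) and -0.06 with hairpin 2 (adjusted p = 0.728). With the mean of its probe sets the hairpin 1 adjusted p was 0.0517. Gpd1 was not called: its log2 fold change was -0.06 with hairpin 1 (95% interval -0.16 to 0.04) and -0.07 with hairpin 2 (-0.17 to 0.03), although 1 other probe set was called higher with hairpin 1 at 0.20.

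The acyl transfers that follow are catalysed by glycerol 3-phosphate acyltransferases (Gpam, Gpat3, Gpat4) and acylglycerol phosphate acyltransferases (Agpat1 to Agpat5). Of these 8 genes, hairpin 1 had 5 called higher and 1 lower, hairpin 2 had 4 higher and 2 lower; 4 were lower with hairpin 2 than with hairpin 1 and 0 higher. Over all genes tested the called shares were 33% with hairpin 1, 34.8% with hairpin 2 and 29.1% between hairpins, and among genes at or above the median signal 40.6%, 42.6% and 36.1% in the same order. Gpat3, the major endoplasmic reticulum isoform of mouse white adipocytes, had 12.33, 12.39 and 12.46 with hairpin 1, 12.14, 12.11 and 12.13 with hairpin 2, and 12.50, 12.59 and 12.60 with the scrambled hairpin. Hairpin 2 was lowest, hairpin 1 in between and scrambled highest, with no overlap. Gpat3 fell by 0.17 with hairpin 1 (adjusted p = 0.0249) and by 0.44 with hairpin 2 (adjusted p = 9.88e-06); the hairpin 1 call was lost without scrambled replicate 2 or 3, and hairpin 2 minus hairpin 1 was -0.27 (adjusted p = 0.00153).

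Gpat4 had 10.54, 10.76 and 10.72 with hairpin 1, 10.55, 10.55 and 10.58 with hairpin 2, and 10.30, 10.21 and 10.37 with the scrambled hairpin, with all 6 hairpin arrays above the scrambled arrays. It rose by 0.37 with hairpin 1 (adjusted p = 0.00209) and 0.26 with hairpin 2 (adjusted p = 0.0172); the hairpin 2 call was lost without scrambled replicate 1 or 2 or hairpin 2 replicate 3. Gpam, the mitochondrial isoform, had 13.20, 13.20 and 13.29 with hairpin 1, 12.90, 12.89 and 12.82 with hairpin 2, and 13.00, 12.95 and 13.03 with the scrambled hairpin. Hairpin 1 lay above and hairpin 2 below scrambled on every array. The log2 fold change was 0.24 with hairpin 1 (adjusted p = 0.00107) and -0.13 with hairpin 2 (adjusted p = 0.0413), a call lost under 9 of 18 alternatives, among them leaving out scrambled replicate 1 or 3 or any hairpin 2 array. Hairpin 2 minus hairpin 1 was -0.36 (adjusted p = 2.34e-05), which held under all 18. The other Gpam probe set was called higher with hairpin 1 at 0.40. With hairpin 2 that set had 0.09, the opposite sign to the brightest set.

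Agpat4 had 10.33, 10.51 and 10.33 with hairpin 1, 10.59, 10.53 and 10.51 with hairpin 2, and 10.12, 9.94 and 10.08 with the scrambled hairpin. Every hairpin array lay above the scrambled arrays, and it rose by 0.34 with hairpin 1 (adjusted p = 0.00458) and by 0.50 with hairpin 2 (adjusted p = 0.000176). Agpat1 had 9.56, 9.80 and 9.90 with hairpin 1, 9.29, 9.59 and 9.24 with hairpin 2, and 9.32, 9.29 and 9.46 with the scrambled hairpin. It rose by 0.39 with hairpin 1 (adjusted p = 0.0124, lost without scrambled replicate 1 or 2 or hairpin 1 replicate 3), the log2 fold change with hairpin 2 was 0.01, and hairpin 2 lay 0.38 below hairpin 1 (adjusted p = 0.0172), a call lost without hairpin 1 replicate 2 or 3 or hairpin 2 replicate 1 or 3. The Agpat1 hairpin 1 arrays were above all scrambled arrays, and both probe sets were called higher.

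Agpat3 had 12.23, 12.40 and 12.34 with hairpin 1, 11.88, 12.00 and 11.88 with hairpin 2, and 12.04, 12.01 and 12.04 with the scrambled hairpin. Hairpin 1 was highest and hairpin 2 lowest on every array. It rose by 0.29 with hairpin 1 (adjusted p = 0.00158), the hairpin 2 value was -0.11 (adjusted p = 0.197), and hairpin 2 minus hairpin 1 was -0.40 (adjusted p = 0.000124). With the mean of all its probe sets both calls were lost: the hairpin 1 value was 0.16 (adjusted p = 0.138) and hairpin 2 minus hairpin 1 was -0.15 (adjusted p = 0.168). On its 3 other probe sets that difference ran from -0.07 to -0.06.

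Agpat2, whose loss causes lipodystrophy in human and mouse, had 13.87, 13.95 and 13.97 with hairpin 1, 13.98, 13.96 and 13.99 with hairpin 2, and 13.78, 13.86 and 13.92 with the scrambled hairpin. Its log2 fold change was 0.13 with hairpin 2, where it rose (adjusted p = 0.0229, lost without scrambled replicate 1 or hairpin 2 replicate 1 or 3), and 0.08 with hairpin 1 (adjusted p = 0.135). The levels lie near the top of the scale. Agpat5 had 10.76, 10.96 and 10.97 with hairpin 1, 11.11, 11.08 and 11.07 with hairpin 2, and 10.90, 10.77 and 10.88 with the scrambled hairpin. It rose by 0.23 with hairpin 2 (adjusted p = 0.0249, lost without scrambled replicate 2 or 3 or any hairpin 2 array), and the hairpin 1 value was 0.04. For neither gene was hairpin 2 minus hairpin 1 called (0.04 for Agpat2 and 0.19 for Agpat5). The hairpin 2 arrays of both genes lay above all scrambled arrays.

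**Figure D2:**
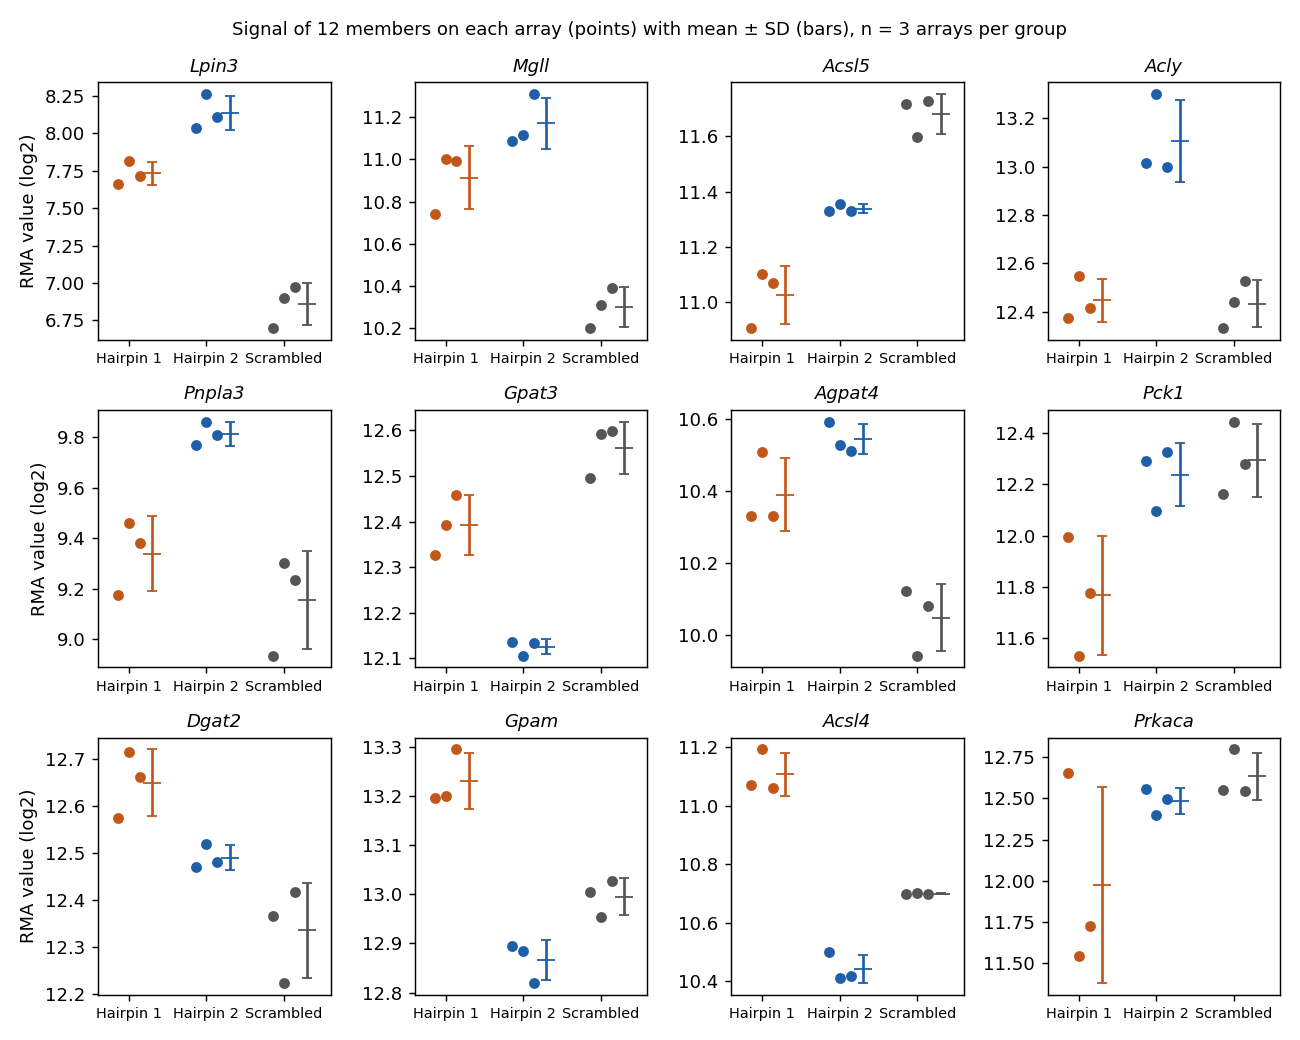
Log2 RMA value (vertical axis, scaled per panel) of 12 members on each array, with hairpin 1 (orange), hairpin 2 (blue) and scrambled (grey) from left to right; points are arrays and bars are mean and SD of 3 arrays. Lpin3 and Mgll separate both hairpins from scrambled, Acly and Pnpla3 hairpin 2, and Prkaca has 1 hairpin 1 array within the scrambled range.

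Lipins remove the phosphate of phosphatidate to give diglyceride. Lpin3 showed the largest change of all members, with 7.66, 7.82 and 7.72 with hairpin 1, 8.03, 8.26 and 8.11 with hairpin 2, and 6.70, 6.90 and 6.97 with the scrambled hairpin. The groups did not overlap, and hairpin 2 was highest. Lpin3 rose 1.83-fold with hairpin 1 (log2 fold change 0.87, SE 0.098, adjusted p = 6.01e-06) and 2.43-fold with hairpin 2 (1.28, SE 0.098, adjusted p = 4.51e-08), and hairpin 2 lay 0.40 above hairpin 1 (adjusted p = 0.00565). These calls held under all 18 alternatives. The scrambled mean of 6.86 is nearer the filter of 5.72 than that of any other tested member, so the fold change may be compressed, and 1 probe set was measured.

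Lpin1, the main lipin of adipose tissue, had 11.39, 11.18 and 11.39 with hairpin 1, 11.05, 11.17 and 11.07 with hairpin 2, and 11.40, 11.53 and 11.49 with the scrambled hairpin. The hairpin arrays lay below the scrambled arrays in both groups. It fell by 0.38 with hairpin 2 (adjusted p = 0.000851); with hairpin 1 the log2 fold change was -0.15 (adjusted p = 0.136). Hairpin 2 minus hairpin 1 was -0.22 (adjusted p = 0.0332), a call lost under 10 of 18 alternatives, including without scrambled replicate 3, hairpin 1 replicate 1 or 3, or hairpin 2 replicate 1 or 3, and the other Lpin1 probe set was not called. Lpin2 was not called with either hairpin (-0.07 with hairpin 1 and 0.06 with hairpin 2).

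The final acyl transfer to triglyceride is made by Dgat1 and Dgat2. Dgat2 had 12.57, 12.72 and 12.66 with hairpin 1, 12.47, 12.52 and 12.48 with hairpin 2, and 12.37, 12.22 and 12.42 with the scrambled hairpin. All 6 hairpin arrays were above all scrambled arrays. Dgat2 rose by 0.31 with hairpin 1 (adjusted p = 0.000747), and the hairpin 2 value was 0.15 (adjusted p = 0.0545), with a difference between hairpins of -0.16 (adjusted p = 0.0546). Dgat2 became called with hairpin 2 under 8 of 18 alternatives, and between hairpins under 5. The other Dgat2 probe set was called higher with hairpin 1 at 0.57.

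Dgat1 had 13.27, 13.44 and 13.36 with hairpin 1, 13.20, 13.28 and 13.20 with hairpin 2, and 13.02, 13.12 and 13.18 with the scrambled hairpin, the same order of groups without overlap against scrambled. It rose by 0.25 with hairpin 1 (adjusted p = 0.00204), and the hairpin 2 value was 0.12 (adjusted p = 0.0991). With the mean of its probe sets the hairpin 1 value was 0.11 (adjusted p = 0.218), and its other probe set was called lower with hairpin 2 at -0.32.

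Among the lipases, Mgll, monoglyceride lipase, which releases the last fatty acid, had 10.74, 11.00 and 10.99 with hairpin 1, 11.09, 11.12 and 11.31 with hairpin 2, and 10.20, 10.31 and 10.39 with the scrambled hairpin. All hairpin arrays were above all scrambled arrays, with hairpin 2 highest. Mgll rose 1.53-fold with hairpin 1 (log2 fold change 0.61, SE 0.091, adjusted p = 9.50e-05) and 1.83-fold with hairpin 2 (0.87, SE 0.091, adjusted p = 1.56e-06); hairpin 2 lay 0.26 above hairpin 1 (adjusted p = 0.0434), a call lost under 11 of 18 alternatives, including without any scrambled array, hairpin 1 replicate 1 or any hairpin 2 array. Of its 3 other probe sets 2 were called higher with both hairpins (0.49 and 0.52 with hairpin 1, 0.79 and 0.81 with hairpin 2), and the other was not called with either (-0.15 with hairpin 1 and -0.04 with hairpin 2).

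Pnpla3, related to Pnpla2 and induced by feeding in mouse, had 9.17, 9.46 and 9.38 with hairpin 1, 9.77, 9.86 and 9.81 with hairpin 2, and 8.94, 9.30 and 9.23 with the scrambled hairpin. The hairpin 2 arrays lay above all others. It rose 1.57-fold with hairpin 2 (log2 fold change 0.66, SE 0.11, adjusted p = 0.000139), the hairpin 1 value was 0.18 (adjusted p = 0.209), and hairpin 2 lay 0.47 above hairpin 1 (adjusted p = 0.00320). The hairpin 2 calls held under all 18 alternatives.

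Pnpla2, adipose triglyceride lipase, the enzyme of the first step, had 12.51, 12.70 and 12.67 with hairpin 1, 12.16, 12.33 and 12.21 with hairpin 2, and 12.27, 12.47 and 12.57 with the scrambled hairpin. The hairpin 1 and hairpin 2 arrays each overlapped the scrambled arrays, and hairpin 2 lay below hairpin 1 throughout. Hairpin 2 minus hairpin 1 was -0.40 (adjusted p = 0.000997), which held under all 18 alternatives. Against scrambled the log2 fold change was 0.19 with hairpin 1 (adjusted p = 0.0652) and -0.20 with hairpin 2 (adjusted p = 0.0478, lost without scrambled replicate 2 or 3, hairpin 1 replicate 3 or hairpin 2 replicate 1 or 3). The other Pnpla2 probe set was called lower with both hairpins, at -0.26 for hairpin 1 and -0.31 for hairpin 2, so the sign with hairpin 1 differs between its probe sets. Lipe, hormone-sensitive lipase, was not called: its 95% interval was -0.30 to 0.04 with hairpin 1 and -0.27 to 0.07 with hairpin 2.

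The lipolytic signal passes through adenylyl cyclase, and Adrb1, listed in the same role, was not analysed. Adcy6 had 10.95, 11.27 and 11.16 with hairpin 1, 11.20, 11.25 and 11.27 with hairpin 2, and 11.56, 11.40 and 11.42 with the scrambled hairpin. Every hairpin array lay below the scrambled arrays. It fell by 0.33 with hairpin 1 (adjusted p = 0.00508) and by 0.22 with hairpin 2 (adjusted p = 0.0493), a call lost under 10 of 18 alternatives, among them leaving out any scrambled or hairpin 2 array or hairpin 1 replicate 3. Gnai1, an inhibitory G protein subunit, was at 4.99 to 5.36 with hairpin 1, 4.91 to 5.24 with hairpin 2 and 5.18 to 5.38 with the scrambled hairpin, below the filter.

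Prkaca, the catalytic subunit of protein kinase A, had 12.65, 11.54 and 11.72 with hairpin 1, 12.56, 12.40 and 12.49 with hairpin 2, and 12.55, 12.80 and 12.55 with the scrambled hairpin. Of the hairpin 1 arrays, 1 lay within the scrambled range and the other two below it. It fell 1.58-fold with hairpin 1 (log2 fold change -0.66, SE 0.19, adjusted p = 0.0132), a call that was lost without hairpin 1 replicate 2 or 3 or scrambled replicate 2 (adjusted p = 0.0972, 0.0629 and 0.0585). The other Prkaca probe set was not called and had a value of 0.20 with hairpin 1. With hairpin 2 the log2 fold change was -0.15 (adjusted p = 0.605).

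Prkar2b, a regulatory subunit of the kinase that is abundant in fat, had 11.85, 11.45 and 11.23 with hairpin 1, 11.95, 11.69 and 12.06 with hairpin 2, and 11.76, 12.09 and 11.68 with the scrambled hairpin. The groups overlapped in every comparison. It was not called against scrambled (-0.33 with hairpin 1 and 0.06 with hairpin 2), and hairpin 2 lay 0.39 above hairpin 1 (adjusted p = 0.0424), a call lost under 7 of 18 alternatives, including without scrambled replicate 1, hairpin 1 replicate 2 or 3, or hairpin 2 replicate 1 or 3. Its 2 other probe sets had 0.10 and -0.72 with hairpin 1.

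Aqp7, the channel through which fat cells release glycerol, had 8.86, 9.25 and 9.09 with hairpin 1, 8.70, 8.49 and 8.66 with hairpin 2, and 8.83, 8.86 and 8.995 with the scrambled hairpin. The hairpin 2 arrays were below all others. Aqp7 fell by 0.28 with hairpin 2 (adjusted p = 0.0482), a call lost under 9 of 18 alternatives, among them leaving out any scrambled or hairpin 2 array or hairpin 1 replicate 3, and the hairpin 1 value was 0.17 (adjusted p = 0.240). Hairpin 2 minus hairpin 1 was -0.45 (adjusted p = 0.00416), which held under all 18. The other Aqp7 probe set was called lower with hairpin 2 at -1.85, with arrays at 7.61, 5.79 and 7.30 for hairpin 2 against 8.68, 9.03 and 8.54 for scrambled. With hairpin 1 that set was also below scrambled on every array at -0.74 (not called), the opposite sign to the brighter set, and the mean of both sets gave -0.28 with hairpin 1 (adjusted p = 0.294).

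**Figure D3:**
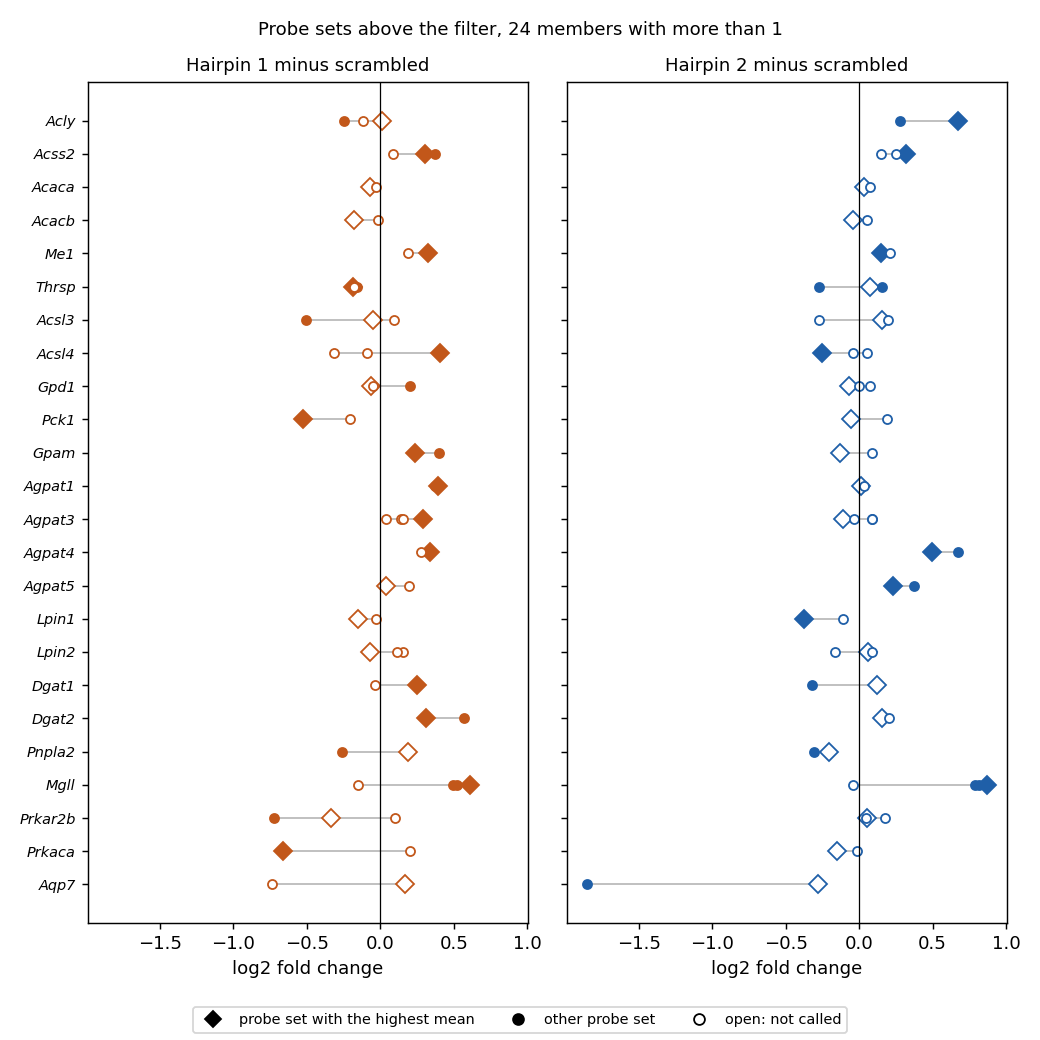
Log2 fold change (horizontal axis) of each probe set above the filter for the 24 members that have more than 1, with hairpin 1 on the left and hairpin 2 on the right; diamonds are the probe sets with the highest mean, circles the others, and open symbols were not called. Probe sets of Mgll lie together except 1, while those of Acsl4, Prkaca, Prkar2b and Aqp7 lie apart with hairpin 1, and those of Aqp7 also with hairpin 2.

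In a separate fit over single probe sets, where 18 members were called with hairpin 1, 14 with hairpin 2 and 15 between hairpins, some called members had another probe set above the filter. Another set was called the same way for 6 of 13 with hairpin 1 (Acss2, Agpat1, Dgat2, Gpam, Mgll and Thrsp) and 4 of 8 with hairpin 2 (Acly, Agpat4, Agpat5 and Mgll). Between hairpins this held for only 3 of 11 (Acly, Aqp7 and Thrsp). Of these, 0 had another set called the opposite way. In that fit the brightest sets of Gpam, Pnpla2, Adcy6 and Aqp7 were not called with hairpin 2, so these genes are not in the hairpin 2 count.

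The hairpins differed from each other in these genes. Of the 33 tested members, 8 were higher and 9 lower with hairpin 2 than with hairpin 1 (51.5%), against 29.1% of all genes tested (11.6% higher and 17.4% lower) and 36.1% of those at or above the median signal, and the groups did not overlap for 18 of 34, against 35.6% of all genes. The direction depended on scaling: with quantile normalization or equal array medians 10 members were higher and 8 lower, and with quantile normalization 1954 genes were higher and 2029 lower over the whole array, against 1483 and 2219 as deposited. The higher ones were Acly, Thrsp, Acsl5, Pck1, Lpin3, Pnpla3, Mgll and Prkar2b. The lower ones were Me1, Acsl4, Gpam, Gpat3, Agpat1, Agpat3, Lpin1, Pnpla2 and Aqp7. The widest difference in the higher direction was Acly at 0.66, with its other tested probe sets at 0.52 and 0.79. In the lower direction Acsl4 was at -0.67 on 1 of its 3 probe sets only, as given above. With the mean of all probe sets the difference of Me1 was no longer called either (-0.07, adjusted p = 0.334). Of the 7 members called with hairpin 1 and not hairpin 2, the difference was called for Thrsp, Pck1, Agpat1 and Agpat3, and not for Dgat1, Dgat2 and Prkaca, although with the mean of all probe sets it was called for Dgat1 (-0.21) and Dgat2 (-0.27). Of the 7 called with hairpin 2 and not hairpin 1, it was called for Acly, Lpin1, Pnpla2, Pnpla3 and Aqp7, and not for Agpat2 and Agpat5. Ebf1 was also lower with hairpin 2, as given above, and its part in these differences was not tested.

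**Figure D4:**
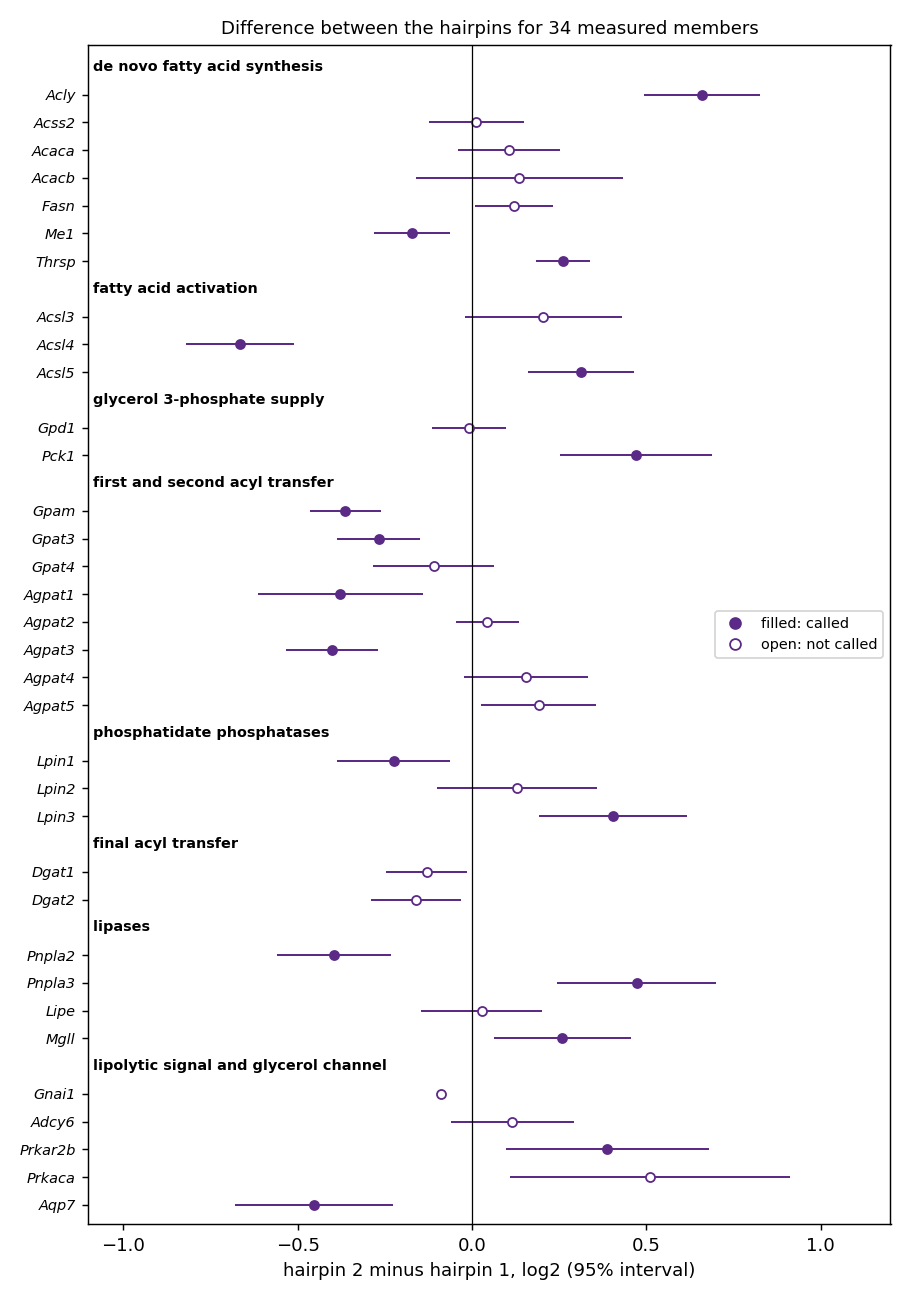
Difference between hairpin 2 and hairpin 1 (horizontal axis, log2 units) for the 34 measured members by role, with 95% interval for the 33 tested (Gnai1 has none); filled points were called by limma. Acly, Pck1, Pnpla3 and Lpin3 lie to the right, and Acsl4, Aqp7, Agpat3 and Pnpla2 to the left.

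Beyond the members, 80 other genes of the same pathways were listed, of which 70 were measured and 60 tested. Hairpin 1 had 15 called higher and 4 lower, hairpin 2 had 13 higher and 7 lower, and hairpin 2 lay above hairpin 1 for 9 and below it for 11. The called shares were 31.7% with hairpin 1, 33.3% with hairpin 2 and 33.3% between hairpins, near the 33%, 34.8% and 29.1% of all genes tested, so the counts for these genes as a whole and for their small groups are descriptions only. In the group that supplies NADPH and acetyl-CoA, 5 of 7 tested genes were called higher with hairpin 1 and 4 with hairpin 2, and 0 lower with either. Of 7 lipogenic regulators, hairpin 1 had 1 higher and 1 lower, and hairpin 2 had 0 higher and 2 lower. Of 12 other glycerolipid synthesis genes, hairpin 1 had 5 higher and 0 lower, and hairpin 2 had 3 higher and 1 lower. Of 12 lipases and lipase partners, hairpin 1 had 1 higher and 2 lower, and hairpin 2 had 2 of each. Of 22 genes of the wider lipolytic signal, hairpin 1 had 3 higher and 1 lower, and hairpin 2 had 4 higher and 2 lower.

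The 8 of these genes called the same way with both hairpins with the largest mean change were Pde4b, Gpd1l, Plpp1, Me2, Srebf1, Slc25a1, Gpd2 and Lipa. Each value rests on the brightest probe set of the gene. Other probe sets and the alternative settings were not examined for these 8 genes. Srebf1, the transcription factor that drives lipogenic genes, fell: it averaged 12.21 ± 0.11 with hairpin 1, 12.18 ± 0.086 with hairpin 2 and 12.59 ± 0.018 with the scrambled hairpin (SD, n = 3 each; limma adjusted p = 0.000246 for hairpin 1 and 8.70e-05 for hairpin 2). Slc25a1, the mitochondrial citrate carrier, rose by 0.40 with hairpin 1 and 0.36 with hairpin 2, and Me2, the mitochondrial malic enzyme, by 0.47 with hairpin 1 and 0.38 with hairpin 2. Gpd1l and Gpd2, which act on glycerol 3-phosphate, rose by 0.56 and 0.29 with hairpin 1 and by 0.64 and 0.33 with hairpin 2. Plpp1, a lipid phosphate phosphatase listed as Ppap2a, rose by 0.61 with hairpin 1 and 0.45 with hairpin 2, and Lipa, the lysosomal acid lipase, by 0.25 with hairpin 1 and 0.35 with hairpin 2. Pde4b, a phosphodiesterase that degrades cyclic AMP, averaged 7.67 ± 0.13 with hairpin 1, 7.97 ± 0.087 with hairpin 2 and 7.14 ± 0.083 with the scrambled hairpin (SD, n = 3 each); it rose by 0.53 with hairpin 1 (limma adjusted p = 0.000524) and 0.83 with hairpin 2 (adjusted p = 4.28e-06).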

How the data were processed

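Each sample was hybridised to 1 Affymetrix mouse expression array after whole-transcriptome amplification and biotin labelling, per the labels' protocols. The authors deposited log2 values, 1 per probe set and array, made with RMA per the submitters' processing notes (no version is given there). RMA equalizes the arrays, so shifts common to all genes are largely removed, and summarizes probes mostly near the 3′ end. Further scaling of the deposited values still changed the counts of higher and lower genes, as given below. All value columns were mapped to samples through their labels, with 0 left over. Values lay between 3.90 and 15.0, array medians between 6.31 and 6.38, and array pairs correlated at 0.994 to 0.998 within a group and 0.974 to 0.989 across groups. The number of arrays, 3 per group, limits the precision.

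Of 45101 probe sets, the 34945 with a single gene symbol were used: 932 with several symbols, 9160 with none and 64 controls were left out. Each of 18193 genes was represented by its brightest probe set, by mean over all 9 arrays, and the 12735 genes whose mean reached the 30th percentile (5.72) were tested. Limma 3.58.1 in R 4.3.3 (lmFit with 3 group coefficients, eBayes with a mean-variance trend) gave two-sided p-values, adjusted by Benjamini-Hochberg over all genes tested, and an adjusted p below 0.05 was a call. Intervals are 95% and unadjusted. Single probe sets were fitted separately. The fit was tested on simulated data. Promoter windows came from RefSeq (GRCm38.p6); the array values name no build.

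The members and the other gene lists were chosen with earlier results of these data known. All members are named; Ebf1 and the 8 other pathway genes with the largest mean absolute change among those called the same way with both hairpins are named too. Alternatives were quantile normalization, equal array medians, no filter, a filter at the 50th percentile, the mean of all probe sets, no mean-variance trend, array weights, a replicate block, fits of only the groups compared, and leaving out each array. Deviations from the group mean were correlated over genes. For same-numbered arrays r ran from -0.29 to 0.25 in 9 pairs, above 0.1 in 3, and for differently numbered arrays from -0.32 to 0.31. The 3 deviations of a group sum to 0, so these values cannot tell whether the repeats were paired.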

Additional observations from a re-analysis of the deposited data

Results flagged for a closer look

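Acsl4 was called higher with hairpin 1 and lower with hairpin 2, each against scrambled, and the test of the difference itself was called: hairpin 2 minus hairpin 1 was -0.67 on the log2 scale by limma. This rests on 1 of 3 probe sets: the others had 0.15 and 0.27, of opposite sign, and with the mean of all probe sets the difference was -0.08 and no longer called (adjusted p = 0.521). Gpam was also called in opposite directions, with hairpin 2 minus hairpin 1 at -0.36, a difference called under all 18 alternatives. Its hairpin 2 call against scrambled was lost under 9 of 18. On its other probe set the difference was -0.31 and not called. That set was above scrambled with both hairpins, at 0.40 with hairpin 1 and 0.09 with hairpin 2. The opposite directions of Gpam therefore rest on its brightest probe set.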

How the results depend on the processing

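Over 18 alternatives, 0 called members changed sign, and 11 of 18 calls with hairpin 1, 9 of 18 with hairpin 2 and 10 of 17 between hairpins held under all. Conversely, 7 uncalled members with hairpin 1, 3 with hairpin 2 and 8 between hairpins became called under at least 1 alternative. With array weights 7460 genes were called with hairpin 1 and 5990 between hairpins, where the weights ran from 0.256 for hairpin 1 replicate 1 to 5.35 for hairpin 1 replicate 3; the cause was not tested. Leaving out 1 array at a time gave 15 to 23 called members with hairpin 1, 10 to 19 with hairpin 2 and 13 to 19 between hairpins, and 3080 to 5423, 3567 to 5047 and 2880 to 4664 genes over the whole array in the same order. Quantile normalization gave 2459 genes higher and 1700 lower with hairpin 1, against 3023 and 1176 as deposited. With the replicate number as a block, 19 members were called with hairpin 1, 15 with hairpin 2 and 19 between hairpins, so the block moved no count by over 1.5 times. Lower signals (Lpin3 with the scrambled hairpin, the lowest of the tested members) or signals near the top of the scale (Thrsp, Fasn, Agpat2) may compress differences.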
